A study of Mus musculus with 24 samples.

Results

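Cholesterol sensing, export and storage were followed through 9 genes in mouse corpus callosum, the fibre tract between the hemispheres of the brain. The genes are Srebf2 and Insig1 (sterol sensing), Nr1h2 and Nr1h3 (oxysterol receptors), Abca1, Abcg1 and Mylip (export and uptake control), Npc1 (exit from the lysosome) and Plin2 (lipid droplets). They were chosen by name from a table of 54446 genes, but with earlier results of these data known, so the choice was not blind. All 9 were among the 15216 genes that reached a mean of 0.5 FPKM (fragments per kilobase, divided by the library's total) over the 24 libraries and were tested. The libraries were made from polyadenylated RNA and fall into 4 groups. These are naive mice given vehicle (naive vehicle, n = 4), naive mice given an inhibitor of Bruton's tyrosine kinase (naive BTKi, n = 4), cuprizone mice given vehicle (cuprizone vehicle, n = 8) and cuprizone mice given the inhibitor (cuprizone BTKi, n = 8). Cuprizone is a copper chelator that kills the oligodendrocytes which make myelin, and the inhibitor was given after disease had been induced. Strain, age, the compound, its dose and the times of treatment were not given in the sources used here. No label ties a library to an animal of its own, so p-values describe the spread among these samples, part of which may be technical.

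Cells hold free cholesterol within narrow limits by circuits that oppose each other. When sterol in the endoplasmic reticulum is low, the factor encoded by Srebf2 (SREBP2) is released and switches on genes of cholesterol synthesis and uptake, and when sterol is plentiful the protein encoded by Insig1 holds it back. Oxidised sterols activate the liver X receptors (LXR, from Nr1h3 and Nr1h2), which switch on exporters. In white matter myelin is the main store of cholesterol, and phagocytes that clear myelin debris take that cholesterol up.

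The level of the 9 genes per length ranked Srebf2 first, at a mean of 50.9 FPKM over all libraries, and Nr1h3 last, at 1.64 FPKM. Between them stood Nr1h2 at 29.2, Insig1 at 21.6, Abcg1 at 17.7, Npc1 at 15.7, Abca1 at 6.63, Mylip at 5.32 and Plin2 at 4.73 FPKM. The ranges over libraries of Abca1, Mylip and Plin2 overlapped one another, as did those of Nr1h2 with Insig1, Insig1 with Abcg1, and Abcg1 with Npc1. Srebf2 stood above every other member in all 24 libraries, and Nr1h3 stood below every other member.

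**Figure D1:**
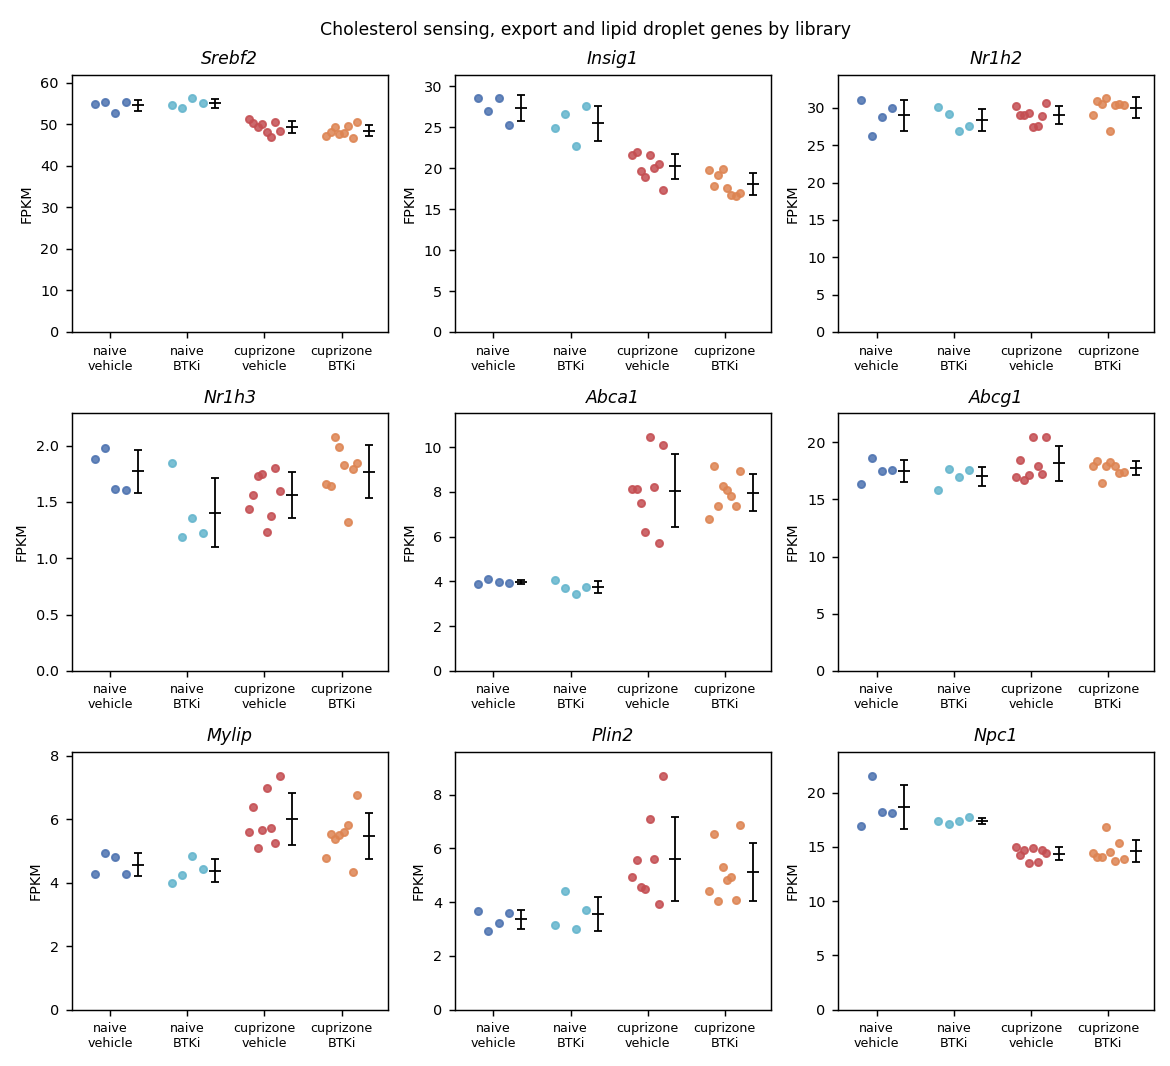
Level of each of the 9 genes in FPKM (vertical axis, from 0) in each of the 24 libraries by group, with the group mean and SD beside the points. Abca1 lay between 3.45 and 4.11 FPKM in naive libraries and between 5.72 and 10.5 FPKM in cuprizone libraries, while Srebf2, Insig1 and Npc1 were lower in every cuprizone library than in every naive library.

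In cuprizone mice under vehicle, Abca1, Plin2 and Mylip rose, and Srebf2, Insig1 and Npc1 fell. Abcg1, Nr1h2 and Nr1h3 did not pass the test. Abca1 had the largest change, a log2 change of 0.91, and Insig1 fell most, by 0.43 on the log2 scale. The count was 6 of 9 members called (limma, Benjamini-Hochberg adjusted p under 0.05 over all tested genes), 3 higher and 3 lower. Over all tested genes 15.0% were called, 10.2% higher and 4.82% lower. In these 6 members the 8 cuprizone vehicle libraries did not overlap the 4 naive vehicle libraries, which held for 8.77% of all genes. The median absolute log2 change was 0.35 over the members and 0.09 over all tested genes.

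Under BTKi the same comparison, between the other 12 libraries, called 4 of 9 members. Its estimate of spread came from the model of all 24 libraries, so it is not fully separate from the comparison under vehicle. Abca1 was higher, and Srebf2, Insig1 and Npc1 were lower. Over all tested genes 7.87% were called, 6.11% higher and 1.77% lower, and 7.17% did not overlap between the groups. All 4 called members were free of overlap. Mylip and Plin2 had log2 changes of 0.29 and 0.46 that did not pass (adjusted p = 0.0606 and 0.0775). The difference between the cuprizone effects under vehicle and under BTKi was itself tested and passed for neither gene (adjusted p = 0.900 and 0.831).

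Srebf2 encodes SREBP2, the main transcriptional activator of cholesterol synthesis. It measured 54.8, 55.5, 52.7 and 55.4 FPKM in naive vehicle libraries and 54.7, 54.0, 56.4 and 55.2 FPKM in naive BTKi libraries. Cuprizone vehicle libraries ran from 47.0 through a median of 49.7 to 51.4 FPKM, and cuprizone BTKi libraries from 46.8 through 48.1 to 50.7 FPKM. All 16 cuprizone libraries were thus below all 8 naive ones. The fall was small, 0.14 on the log2 scale under vehicle (SE 0.03, limma adjusted p = 0.00101) and 0.18 under BTKi (SE 0.03, adjusted p = 0.000122). The standard deviations within groups were 1.02 to 1.47 FPKM, so a change of this size stood clear of the spread.

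Insig1 encodes the endoplasmic reticulum protein that retains the SREBP complex, and it is itself switched on by SREBPs. Naive vehicle libraries held 28.6, 27.0, 28.6 and 25.3 FPKM, and naive BTKi libraries 25.0, 26.6, 22.7 and 27.6 FPKM. In cuprizone vehicle libraries the lowest, median and highest values were 17.4, 20.3 and 22.0 FPKM, and in cuprizone BTKi libraries 16.6, 17.7 and 20.0 FPKM. No cuprizone library reached the lowest naive one. The log2 change was -0.43 under vehicle (SE 0.06, limma adjusted p = 2.71e-05) and -0.48 under BTKi (SE 0.06, adjusted p = 1.48e-05). Insig1 fell further than Srebf2: the log2 ratio of Insig1 to Srebf2 within a library moved by -0.29 under vehicle and by -0.30 under BTKi. An exact two-sided permutation test over the 495 splits of 8 against 4 libraries gave p = 0.00202, the smallest it can give, and p = 0.00606 (adjusted p = 0.00242 and 0.00606 over 6 ratio tests, which were added after the data were seen).

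Upstream sequences are shown for Srebf2 and Insig1 because both fell in every cuprizone library. RefSeq promoter entries (GRCm38.p6, 250 bases before to 50 after the start) were found for 7 of the 9 genes. Each was searched on both strands for the classic sterol regulatory element, with at most 1 mismatch, and for the LXR element, 2 copies of AGGTCA with 4 bases of any kind between them, with at most 3 mismatches. The stretches printed are 5′ to 3′ and stop where the GENCODE M21 gene model starts, and capitals mark the match. Srebf2 is read on the plus strand of chr15:82147019-82147180 and Insig1 on the plus strand of chr5:28071162-28071362.
Srebf2: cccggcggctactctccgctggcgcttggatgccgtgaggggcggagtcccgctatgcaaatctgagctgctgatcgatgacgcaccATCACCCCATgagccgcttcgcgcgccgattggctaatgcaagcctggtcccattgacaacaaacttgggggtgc
Insig1: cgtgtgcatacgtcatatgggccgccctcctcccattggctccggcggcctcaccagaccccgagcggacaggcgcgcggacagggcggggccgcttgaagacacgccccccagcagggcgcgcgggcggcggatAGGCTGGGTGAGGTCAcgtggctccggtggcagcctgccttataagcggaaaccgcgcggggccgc
The Srebf2 match is to the sterol regulatory element, with 1 mismatch, from 163 to 154 bases before the RefSeq start. Such a match was present in 1.95% of 32851 promoters. The Insig1 match is to the LXR element, with 3 mismatches, from 115 to 100 bases before the start. That motif at 3 mismatches was present in 21.9% of promoters. No match to the sterol regulatory element was found in the Insig1 window, and none to the LXR element in that of Srebf2.

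The oxysterol receptors did not pass the test in any comparison. Nr1h2 encodes LXR beta, the more widely expressed form, and Nr1h3 encodes LXR alpha, which is prominent in macrophages. Nr1h2 averaged 29.0 ± 2.07 FPKM in naive vehicle (SD, n = 4), 28.4 ± 1.48 in naive BTKi (n = 4), 29.0 ± 1.14 in cuprizone vehicle (n = 8) and 30.0 ± 1.40 FPKM in cuprizone BTKi libraries (n = 8). The 95% interval of its log2 change with cuprizone under vehicle ran from -0.09 to 0.10. After median ratio scaling the value was -0.0257 in place of 0.00, so its sign is not settled.

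Nr1h3 was the lowest member, with the fewest fragments behind its values. It was at 1.88, 1.98, 1.61 and 1.61 FPKM in naive vehicle libraries and at 1.85, 1.19, 1.36 and 1.23 FPKM in naive BTKi libraries. Cuprizone vehicle libraries ran from 1.23 through 1.58 to 1.80 FPKM and cuprizone BTKi libraries from 1.32 through 1.81 to 2.08 FPKM. All 4 groups overlapped. These came to approximately 91.0 to 159 fragments per library. The log2 change with cuprizone was -0.14 under vehicle (adjusted p = 0.366) and 0.26 under BTKi (adjusted p = 0.124). The latter passed without naive BTKi 1 (adjusted p = 0.0244) and without cuprizone BTKi 6 (adjusted p = 0.0447).

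Abca1 encodes the transporter that passes cholesterol and phospholipid to lipid-poor apolipoproteins and is a classical LXR target. It was at 3.86, 4.11, 3.98 and 3.93 FPKM in naive vehicle libraries and at 4.05, 3.72, 3.45 and 3.76 FPKM in naive BTKi libraries. In cuprizone vehicle the values were 8.14, 8.13, 7.51, 6.21, 10.5, 8.22, 5.72 and 10.1 FPKM for libraries 1 to 8. In cuprizone BTKi they were 6.77, 9.15, 7.39, 8.27, 8.08, 7.79, 7.35 and 8.94 FPKM. The lowest cuprizone library, cuprizone vehicle 7, was above the highest naive one. Mean Abca1 was 2.03-fold higher with cuprizone under vehicle and 2.13-fold higher under BTKi. The log2 changes were 0.91 (SE 0.11, limma adjusted p = 1.63e-06) and 0.99 (SE 0.11, adjusted p = 1.51e-06). Without the 3 cuprizone vehicle libraries poorest in choroid plexus RNA (1, 4 and 7), the change under vehicle was 1.06.

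The upstream sequence of Abca1 is shown because Abca1 rose most of the members and the window holds a match to the LXR element. It is read 5′ to 3′ on the minus strand of chr4:53159896-53160145, directly before the RefSeq start, and capitals mark the match.
Abca1: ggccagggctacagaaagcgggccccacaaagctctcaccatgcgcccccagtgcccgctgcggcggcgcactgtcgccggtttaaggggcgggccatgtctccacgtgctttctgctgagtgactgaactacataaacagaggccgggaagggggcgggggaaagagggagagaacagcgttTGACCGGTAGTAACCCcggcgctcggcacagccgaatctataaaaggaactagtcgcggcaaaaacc
The match has 3 mismatches, reads on the opposite strand, and lies 67 to 52 bases before the start. A match of this quality was present in 21.9% of promoters. No match to either motif was found in the windows of Mylip, Plin2, Nr1h2 or Nr1h3.

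Abcg1, the partner exporter that passes cholesterol to lipoprotein particles and is also an LXR target, did not move with Abca1 across the groups. It averaged 17.5 ± 0.953 FPKM in naive vehicle (SD, n = 4), 17.0 ± 0.837 in naive BTKi (n = 4), 18.2 ± 1.52 in cuprizone vehicle (n = 8) and 17.7 ± 0.617 FPKM in cuprizone BTKi libraries (n = 8). Its log2 change with cuprizone was 0.05 under vehicle (95% interval -0.06 to 0.16, adjusted p = 0.592) and 0.06 under BTKi (-0.05 to 0.16, adjusted p = 0.618). The highest Abcg1 values, 20.5 FPKM each, came from cuprizone vehicle 5 and 8, and these libraries also had the highest Abca1. The log2 ratio of Abca1 to Abcg1 within a library was 0.86 higher with cuprizone under vehicle and 0.93 higher under BTKi (exact permutation p = 0.00202 for each, adjusted p = 0.00242). This ratio, too, was added after the data were seen.

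Mylip encodes a ubiquitin ligase, also called IDOL, that sends lipoprotein receptors to degradation and is switched on by LXR. Naive vehicle libraries were at 4.27, 4.94, 4.81 and 4.26 FPKM and naive BTKi libraries at 3.99, 4.23, 4.84 and 4.44 FPKM. Cuprizone vehicle libraries ran from 5.10 through 5.69 to 7.37 FPKM, above all naive vehicle libraries. Cuprizone BTKi libraries ran from 4.33 through 5.52 to 6.78 FPKM and overlapped the naive BTKi ones in libraries 1 and 7. The log2 change under vehicle was 0.35 (SE 0.09, limma adjusted p = 0.00980) and under BTKi 0.29 (SE 0.09, adjusted p = 0.0606). Under BTKi it passed without cuprizone vehicle 8, cuprizone BTKi 1 or cuprizone BTKi 7 (adjusted p = 0.0409, 0.0438 and 0.0198). The rise of Abca1 was the larger, and the log2 ratio of Abca1 to Mylip rose by 0.56 under vehicle and by 0.71 under BTKi. The exact permutation test gave p = 0.00202 for each (adjusted p = 0.00242), but this pair was added after the data were seen.

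Plin2 encodes perilipin 2, a coat protein of lipid droplets that is stabilised by stored lipid. It was at 3.68, 2.94, 3.21 and 3.61 FPKM in naive vehicle libraries and at 3.17, 4.40, 3.00 and 3.72 FPKM in naive BTKi libraries. In cuprizone vehicle libraries 1 to 8 it was at 4.95, 5.56, 4.56, 4.48, 7.09, 5.59, 3.93 and 8.71 FPKM, and in cuprizone BTKi libraries at 4.43, 6.54, 4.03, 5.31, 4.84, 4.92, 4.06 and 6.88 FPKM. Under vehicle the cuprizone libraries lay above the naive ones, and under BTKi naive BTKi 2 reached into the cuprizone range. The log2 change was 0.63 under vehicle (SE 0.16, limma adjusted p = 0.00632) and 0.46 under BTKi (SE 0.16, adjusted p = 0.0775). Without cuprizone vehicle 8 the change under vehicle was 0.54 (adjusted p = 0.00914), and that under BTKi passed (adjusted p = 0.0338). Plin2 had the widest spread of the members in cuprizone vehicle, with an SD of 28.2% of its mean, against 20.5% for Abca1 and 2.98% for Srebf2.

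Npc1 encodes the lysosomal membrane protein that moves cholesterol out of late endosomes and lysosomes. It was at 16.9, 21.6, 18.2 and 18.1 FPKM in naive vehicle libraries and at 17.4, 17.1, 17.4 and 17.7 FPKM in naive BTKi libraries. Cuprizone vehicle libraries ran from 13.5 through 14.6 to 15.0 FPKM and cuprizone BTKi libraries from 13.7 through 14.3 to 16.8 FPKM, without overlap with the naive ones. The log2 change was -0.36 under vehicle (SE 0.05, limma adjusted p = 2.76e-05) and -0.25 under BTKi (SE 0.05, adjusted p = 0.00296). The highest value came from naive vehicle 2, and without that library the change under vehicle was -0.29 (adjusted p = 0.000255). Npc1 shares 511 exonic bases with Rmc1 on the opposite strand, which averaged 11.1 FPKM. Whether counting used the strand was not given in the sources used here, so part of the Npc1 value is uncertain.

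BTKi changed none of the 9 genes by the test, in cuprizone or in naive mice. In cuprizone mice 0 of 9 members were called (0.177% of all genes by limma, 27 genes, with 1338 at an unadjusted p under 0.05), and no member's libraries separated by drug (0.131% of all genes). In naive mice 0 of 9 were called (0.217%, 33 genes, 1922 at an unadjusted p under 0.05) and none separated (7.36%). The difference of the BTKi effects between cuprizone and naive mice called 0 of 9 (0.125%, 19 genes, 1482 at an unadjusted p under 0.05). Insig1 had the smallest unadjusted p of the members in cuprizone mice: its log2 change with BTKi was -0.16 (95% interval -0.26 to -0.05, limma adjusted p = 0.314). In 3 cuprizone BTKi libraries Insig1 was below the lowest cuprizone vehicle library. For Abca1 the drug effect in cuprizone mice was 0.00 with an interval from -0.18 to 0.19, and for Plin2 it was -0.10 with an interval from -0.36 to 0.16. Nr1h3 gave -0.26 in naive mice (adjusted p = 0.330) and 0.14 in cuprizone mice (adjusted p = 0.651), a difference of 0.40 (adjusted p = 0.352). The comparisons with drug share libraries with those of cuprizone, so they are not independent of them.

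**Figure D2:**
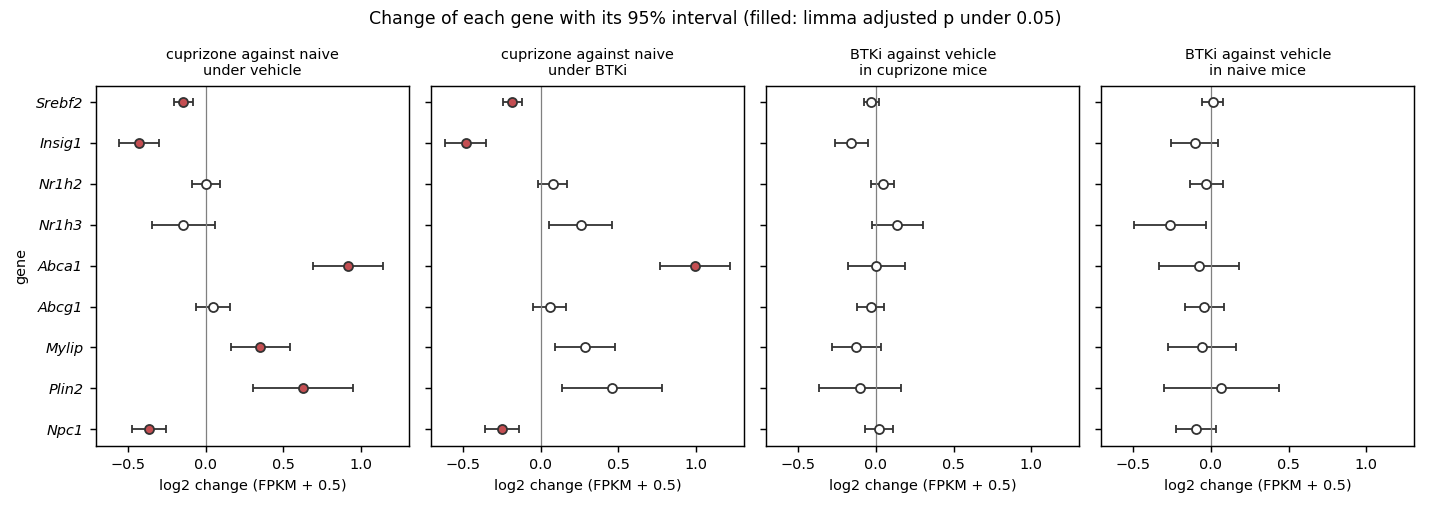
Log2 change of each gene (horizontal axis, on FPKM + 0.5) with its 95% interval in 4 comparisons, where filled points have a limma adjusted p under 0.05. The 6 filled points under vehicle include Abca1 at 0.91 and Insig1 at -0.43, the 4 under BTKi include Abca1 at 0.99, and no point is filled for BTKi against vehicle.

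The summed FPKM of cell type markers moved with the same groups. In bulk tissue fewer cells of a type and less RNA per cell cannot be told apart. Of the 8 activated microglia markers all 8 rose with cuprizone in both comparisons, and their sum ran from 19.5 to 24.6 FPKM in naive and from 56.3 to 330 FPKM in cuprizone libraries. The 8 general microglia markers summed to between 125 and 153 FPKM in naive and between 193 and 490 FPKM in cuprizone libraries, and 6 of 8 rose. The 8 mature oligodendrocyte markers summed to between 2907 and 4720 FPKM in naive and between 1069 and 2560 FPKM in cuprizone libraries, and under vehicle all 8 fell. The 6 astrocyte markers summed to between 410 and 468 FPKM in naive and between 565 and 748 FPKM in cuprizone libraries. Under vehicle 3 of the 6 rose, Gja1 fell (log2 change -0.23, limma adjusted p = 0.0293, named after its value was seen) and 2 did not pass. The 6 striatal neuron markers also differed, and under vehicle all 6 fell, with sums from 159 to 414 FPKM in naive vehicle and from 78.8 to 150 FPKM in cuprizone vehicle libraries. Under BTKi none of the 6 passed limma's test at an adjusted p under 0.05, with sums from 143 to 235 and from 77.7 to 205 FPKM. No marker of these 5 lists was at 0 in all libraries. Their part in the changes of the members was not tested.

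Within the cuprizone groups, Plin2 was high in the libraries that were high in Abca1, Mylip and Abcg1. Over the 16 cuprizone libraries, with group means removed, 4 of 36 pairs of members passed a permutation test with Benjamini-Hochberg adjustment over the 36 pairs. Abca1 and Plin2 had the closest relation, with Pearson's r = 0.89 and Spearman's rho = 0.93 (permutation adjusted p = 0.000720 for each), and r was 0.90 without the 2 libraries farthest from the median Abca1. Mylip and Plin2 gave r = 0.85 and rho = 0.81 (permutation adjusted p = 0.00144 and 0.00792), and r was 0.83 without the 2 farthest libraries. Abca1 and Mylip gave r = 0.73 and rho = 0.72 (permutation adjusted p = 0.0129 and 0.0279), and 0.78 without the 2 farthest. Abcg1 and Plin2 gave r = 0.78 and rho = 0.74 (permutation adjusted p = 0.0129 and 0.0232), and 0.58 without the 2 farthest. Abca1 and Abcg1, at r = 0.72, did not pass (permutation adjusted p = 0.0755).

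The relations were also computed in each cuprizone group alone. In cuprizone vehicle alone, r was 0.91 for Abca1 with Plin2, 0.94 for Mylip with Plin2, 0.80 for Abca1 with Mylip and 0.92 for Abcg1 with Plin2. In cuprizone BTKi alone, r was 0.90, 0.74, 0.71 and 0.42 in the same order, and none of the 36 pairs passed there at n = 8 (permutation adjusted p = 0.0662 for Abca1 with Plin2). In cuprizone vehicle alone, Abca1 with Mylip did not pass (permutation adjusted p = 0.132), while Abcg1 with Mylip did, at r = 0.96 (0.0198). Over the 16 cuprizone libraries, the fallen genes Srebf2 and Insig1 had r = 0.05 with each other (permutation adjusted p = 0.931).

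Abca1, Plin2, Mylip and Abcg1 followed the sums of the microglial markers, and the first 3 of them also that of the astrocyte markers, in relations that were chosen after the data were seen. Over the 16 cuprizone libraries 12 of 36 relations between members and 4 marker sums passed. With the activated microglia sum, Pearson's r was 0.94 for Plin2, 0.87 for Abca1, 0.82 for Mylip and 0.75 for Abcg1, and Spearman's rho was 0.84, 0.86, 0.76 and 0.70 (permutation adjusted p of r = 0.000180, 0.000360, 0.00162 and 0.0196). Without the 2 libraries farthest in that sum, r was 0.88, 0.90, 0.67 and 0.82. In cuprizone vehicle alone these r were 0.99, 0.89, 0.95 and 0.95, and in cuprizone BTKi alone 0.85, 0.84, 0.66 and 0.08. The general microglia sum also passed with these 4 genes. With the astrocyte sum r was 0.85 for Abca1, 0.84 for Plin2 and 0.66 for Mylip (permutation adjusted p = 0.00216, 0.000792 and 0.0240), and rho was 0.71, 0.70 and 0.46 (permutation adjusted p = 0.0224, 0.0224 and 0.218). Without the 2 libraries farthest in that sum r was 0.74, 0.74 and 0.53, in cuprizone vehicle alone 0.94, 0.87 and 0.76, and in cuprizone BTKi alone 0.55, 0.80 and 0.55. Abcg1 did not pass with it (r = 0.61, rho = 0.45, permutation adjusted p = 0.102 and 0.258). Npc1 followed the mature oligodendrocyte sum, with r = 0.78 and rho = 0.72 (permutation adjusted p = 0.00416 and 0.0184), 0.59 without the 2 farthest libraries, 0.61 in cuprizone vehicle alone and 0.84 in cuprizone BTKi alone. None of the 36 passed in cuprizone BTKi alone, where the smallest permutation adjusted p was 0.0532. In cuprizone vehicle alone, Npc1 with the mature oligodendrocyte sum and Mylip with the astrocyte sum did not pass (permutation adjusted p = 0.331 and 0.108). Insig1, Srebf2, Nr1h2 and Nr1h3 passed with none of the 4 sums.

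**Figure D3:**
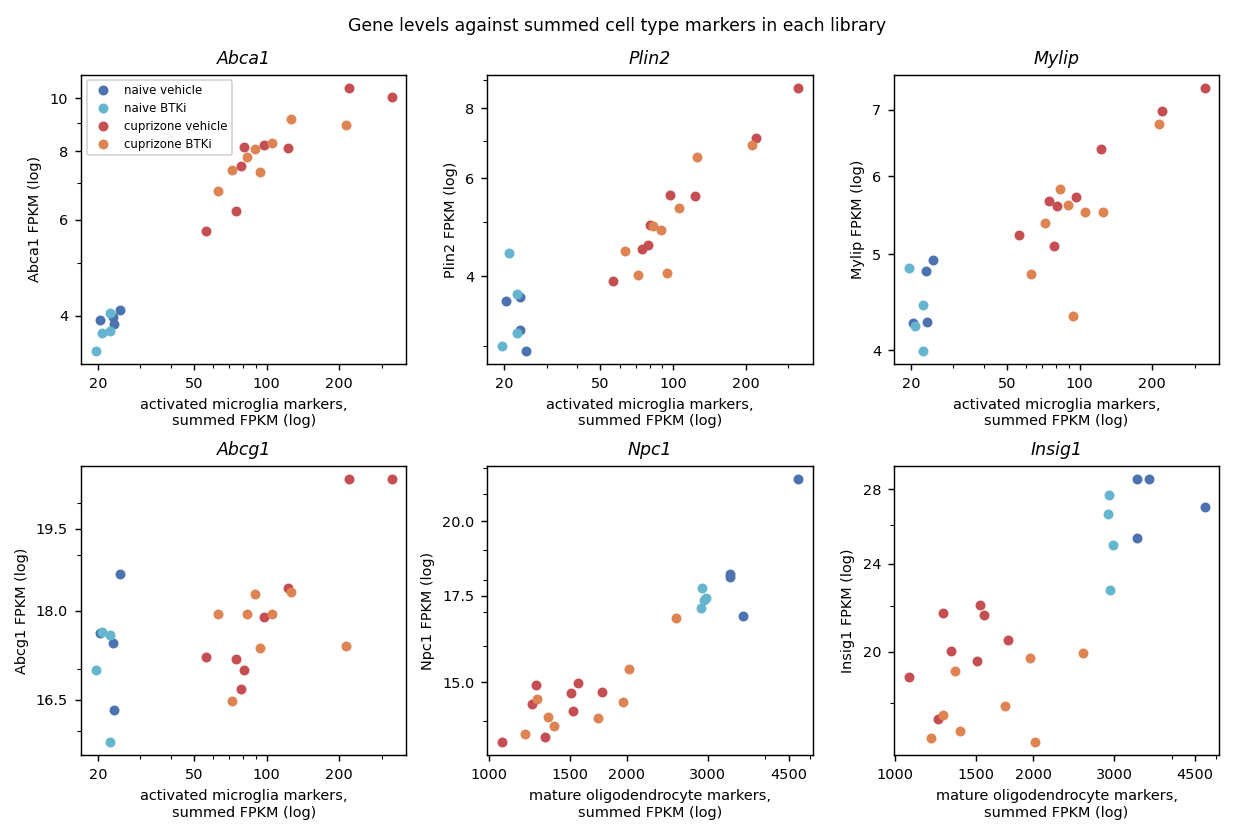
FPKM of 6 genes (vertical axes, log scale) against the summed FPKM of activated microglia or mature oligodendrocyte markers (horizontal axes, log scale), with 1 point for each of the 24 libraries. The libraries highest in activated microglia markers, up to 330 FPKM, are among the highest in Abca1, Plin2 and Mylip, and the naive library with 4720 FPKM of oligodendrocyte markers has the highest Npc1.

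The genes with the most similar pattern over the libraries differed from member to member. Likeness was the mean absolute difference of z-scores of log2(FPKM + 0.5) over the 24 libraries, among 13667 genes with a mean of at least 1 FPKM. Abca1 was most like Clec7a, a lectin receptor of microglia (0.138), then Serpina3n (0.139) and Cd52 (0.156). Plin2 was most like Pik3ap1 (0.243), Ctsz and Dock8, and Mylip was most like Apbb1ip (0.317), Spp1 and Cd180. Srd5a1 and Acss2 were among the 3 genes most like Insig1, and Gstp1 (0.363) and Sqle among the 3 most like Srebf2. Npc1 was most like Slc44a1 (0.193), Rffl and 1700047M11Rik. The nearest genes to Abcg1 were Snx17 (0.352), Hif1a and Itm2b, those to Nr1h2 were Brms1 (0.600), Pdlim7 and Fam160a2, and those to Nr1h3 were Zfp560 (0.610), Chd3 and Ptgs2. The median over all genes was between 1.03 and 1.19, so Nr1h2 and Nr1h3 had no near neighbour of the kind Abca1 had. Group means were not removed, so a shift between naive and cuprizone libraries that genes share counts as likeness. Nr1h2 and Nr1h3 had no called shift of this kind.

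Most other target genes of SREBP2 fell as Insig1 did. Of 18 tested SREBP2 target genes, 14 were lower and 0 higher with cuprizone under vehicle (median log2 change -0.29, against 0.03 over all tested genes), and 15 were lower and 0 higher under BTKi (median -0.39). Over all tested genes 4.82% were called lower under vehicle and 1.77% under BTKi. Msmo1, a sterol demethylating enzyme, averaged 44.7 ± 1.03 FPKM in naive vehicle (SD, n = 4) and 30.0 ± 2.14 FPKM in cuprizone vehicle libraries (SD, n = 8), and its log2 change was -0.57 (limma adjusted p = 3.09e-07). Idi1, an isomerase of the isoprenoid steps, had a log2 change of -0.52 (adjusted p = 9.70e-06). Of 11 SREBP processing genes, 1 was called higher under vehicle and 2 under BTKi, where 10.2% and 6.11% of all tested genes were. The 1 under vehicle was Srebf1, which encodes SREBP1 and is itself an LXR target (log2 change 0.38, adjusted p = 0.0162). The mature oligodendrocyte marker sum fell in the same libraries, and its part in these counts was not tested. The Srebf1 call was lost without naive vehicle 3 or naive vehicle 4 (adjusted p = 0.0632 and 0.0913).

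Other LXR targets were mixed, as the members were. Of 13 tested, 5 were higher and 2 lower under vehicle, and 5 were higher and 1 lower under BTKi. Over all tested genes 10.2% were called higher and 4.82% lower under vehicle, and 6.11% and 1.77% under BTKi. Apoe, the main apolipoprotein of the brain, averaged 897 ± 110 FPKM in naive vehicle (SD, n = 4) and 1802 ± 443 FPKM in cuprizone vehicle libraries (SD, n = 8), and its log2 change was 0.98 (limma adjusted p = 3.89e-05). Lpl, a lipase that releases fatty acids from lipoproteins, had a log2 change of 0.93 (adjusted p = 9.25e-05). Apoc1, a small exchangeable apolipoprotein, had a log2 change of 1.46 (adjusted p = 0.0160). It averaged 0.903 ± 0.187 FPKM in naive vehicle and 4.17 ± 3.87 FPKM in cuprizone vehicle libraries (SD). Cuprizone vehicle 8 was at 13.4 FPKM and the next highest of that group at 4.26 FPKM, so the size of the change leans on 1 library. The 2 lower genes were the desaturases Scd1 (-0.44, adjusted p = 4.59e-05) and Scd2 (-0.24, adjusted p = 0.000243), named after their values were seen. Of 10 LXR partners and coregulators, 2 were higher and 1 lower under vehicle, against 15.0% of all genes called. The higher genes were Nrip1 (log2 change 0.21, adjusted p = 0.0125) and Rxra (0.14, adjusted p = 0.0432), and neither passed without naive vehicle 2 (adjusted p = 0.0821 and 0.221) or with a replicate block (0.0531 and 0.0933). Rxra was also lost after median ratio or quantile scaling (adjusted p = 0.128 and 0.181), with the 2 groups compared alone (0.0877), and without any 1 of naive vehicle 3, naive BTKi 4 and cuprizone vehicle 1, 2, 3, 6, 7 and 8 (0.0507 to 0.105). Rxrg, a retinoid X receptor, had a log2 change of -1.02 (adjusted p = 0.0113) that was lost without naive vehicle 2 (adjusted p = 0.0850) and without cuprizone vehicle 1, 4 and 7 together (0.0752). That naive library also had the highest sum of striatal neuron markers, 414 FPKM, against 143 to 255 FPKM in the other naive libraries.

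Among 11 other sterol export and lipoprotein genes, 2 were higher and 1 lower in both comparisons, where 15.0% and 7.87% of all genes were called. The lists share genes: Apoe is counted here and among the LXR targets, and Srebf1 among the SREBP processing genes and the LXR targets. Apoe and Clu rose, Clu by a log2 change of 0.27 under vehicle (limma adjusted p = 0.00235), and Abca2, a transporter of oligodendrocytes, fell by 0.65 on the log2 scale (adjusted p = 5.88e-08). Of 13 other endolysosomal cholesterol genes 3 rose under BTKi and 0 fell, where 6.11% of all tested genes were called higher. Under vehicle 2 rose and 0 fell, where 10.2% of all tested genes were called higher. Npc2, the soluble partner of the Npc1 protein in the lysosome, rose while Npc1 fell, with a log2 change of 0.48 (adjusted p = 0.00793). Scarb2, a lysosomal membrane protein, had a log2 change of 0.13 (adjusted p = 0.0150). That call was lost without naive vehicle 1 or naive vehicle 3 (adjusted p = 0.0558 and 0.0662) and with the 2 groups compared alone (0.0541).

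Of 17 lipid droplet genes tested beside Plin2, 1 was higher and 2 lower under vehicle, where 15.0% of all genes were called, and 2 were higher and 0 lower under BTKi, where 7.87% were. Plin3 was at a log2 change of -0.35 (limma adjusted p = 0.0256), Soat1, which esterifies cholesterol for storage, at 0.29 (adjusted p = 0.0272) and Acsl3 at -0.17 (adjusted p = 0.0306). Each of these calls was lost without naive vehicle 1 (adjusted p = 0.0609, 0.116 and 0.0628), and those of Plin3 and Acsl3 also without naive vehicle 2 (0.127 and 0.126). Perilipin genes Plin1, Plin4 and Plin5 averaged under 0.5 FPKM and were not tested.

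Genes that make, convert, clear or sense oxysterols, the ligands of the LXR proteins, included 2 higher and 1 lower of 8 in both comparisons. Of all genes 15.0% and 7.87% were called there. Ch25h, which makes 25-hydroxycholesterol, was at 0.253 ± 0.163 FPKM (SD, n = 4) in naive vehicle and at 1.51 ± 1.36 FPKM (SD, n = 8) in cuprizone vehicle libraries, and its log2 change was 1.21 (limma adjusted p = 0.00954). Gpr183, an oxysterol receptor on immune cells, had a log2 change of 0.69 (adjusted p = 0.00530). These values depended on the pseudocount, and with 0.1 and 1 in place of 0.5 they were 1.92 and 0.87 for Ch25h and 1.12 and 0.47 for Gpr183. Both genes averaged under 1 FPKM over the 24 libraries and were left out under a filter of 1 FPKM. Cyp27a1, a mitochondrial sterol hydroxylase, had a log2 change of -0.58 (adjusted p = 0.00319), and under BTKi the lower gene was Cyp39a1 (-0.34, adjusted p = 0.0115), named after its value was seen. The medians of the 8 lists other than SREBP2 targets lay between -0.04 and 0.10 under vehicle and between -0.02 and 0.08 under BTKi, against 0.03 and 0.02 over all tested genes. None of the 9 lists had a gene called for BTKi against vehicle, whether in cuprizone mice or in naive ones, or for the difference of those effects.

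**Figure D4:**
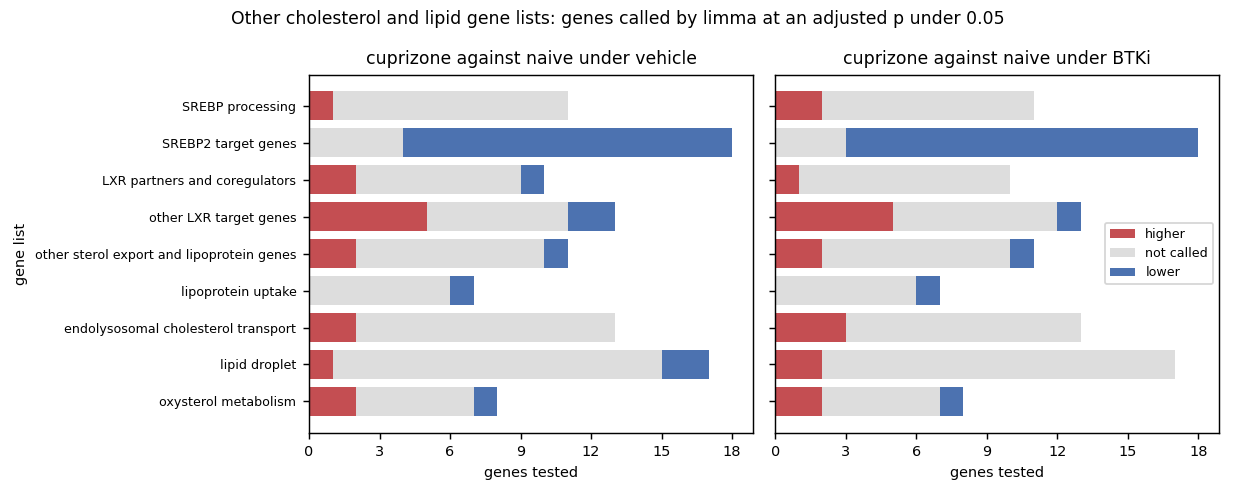
Number of tested genes (horizontal axis) in each of 9 further lists that were called higher (red), called lower (blue) or not called (grey) by limma with cuprizone under vehicle and under BTKi. SREBP2 target genes show 14 and 15 lower genes of 18, while the other lists have at most 5 genes called in either direction.

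The 24 libraries were of similar depth, about 3.04e+07 fragments at the median and 2.65e+07 in cuprizone BTKi 5, the lowest. Markers of tissue beside the tract were also present: the choroid plexus sum ran from 30.7 to 2535 FPKM, with cuprizone vehicle 1, 4 and 7 lowest at 124, 30.7 and 36.2 FPKM. Without these 3 libraries the members called were again 6 under vehicle and 4 under BTKi. Btk, which encodes the target of the drug, had a log2 change of 0.80 with cuprizone under vehicle (limma adjusted p = 0.000627) and of -0.19 with BTKi in cuprizone mice (adjusted p = 0.705).

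By GENCODE M21 (GRCm38) all 9 are protein-coding genes. The annotation places Srebf2 (ENSMUSG00000022463.8) at chr15:82147181-82205379 (plus strand) and Insig1 (ENSMUSG00000045294.11) at chr5:28071363-28078662 (plus strand). It has Nr1h2 (ENSMUSG00000060601.13) at chr7:44549616-44553951 (minus strand) and Nr1h3 (ENSMUSG00000002108.10) at chr2:91184061-91202834 (minus strand). The exporters are Abca1 (ENSMUSG00000015243.4) at chr4:53030787-53159895 (minus strand) and Abcg1 (ENSMUSG00000024030.6) at chr17:31057675-31117988 (plus strand), and the ligase gene is Mylip (ENSMUSG00000038175.10) at chr13:45389742-45412022 (plus strand). The remaining members are Npc1 (ENSMUSG00000024413.13) at chr18:12189692-12236400 (minus strand) and Plin2 (ENSMUSG00000028494.12) at chr4:86648386-86670060 (minus strand). The IDs of Abcg1 and Npc1 matched the annotation without their version. The build behind the deposited values was not given in the sources used here.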

How the data were processed

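The table the authors deposited holds 1 FPKM value for each of 54446 Ensembl gene IDs and each of 24 libraries, made with the RNeasy Micro and TruSeq stranded mRNA kits per the labels' protocols. FPKM is scaled to the fragments of a library, so a gene's value falls when other genes take more of it. Aligner, counting tool and build were not given in the sources used here. Symbols came from the reference tables (54409 IDs matched).

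All 24 libraries entered 1 limma 3.58.1 model (R 4.3.3) of 4 groups on log2(FPKM + 0.5), with a trend, for the 15216 genes with a mean of at least 0.5 FPKM, and Benjamini-Hochberg adjustment at 0.05 over all of them. Log2 changes are on that scale, which understates changes of low genes, while mean ± SD values are FPKM. Relations used 100000 permutations within groups, and ratios within a library used exact permutations (SciPy 1.17.1). Scripts used Python 3.11.15, pandas 2.3.3, numpy 2.4.6 and matplotlib 3.10.9, and the fit was tested on simulated data. Depth was read from the spacing of values in 4369 low genes: 87.6% of 53678 values lay within 0.1 of a whole multiple. Evenly spread values would give 20%. The lowest values of each gene set its unit and were counted too, so 20% is not a chance level for them.

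The members and gene lists were chosen with earlier results of these data known. Named genes are the members, from each list up to 3 called genes of largest change under vehicle, the 3 genes most like each member, and Btk. Replicate pairs were compared, and none was close to being 1 library deposited again. Alternatives were the pseudocount, the filter, the scaling, only the groups compared, a replicate block, each library left out, and, added after the data were seen, 3 libraries left out together. Values of some genes that the rule for named genes selects are not reported here.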

Additional observations from a re-analysis of the deposited data

Results flagged for a closer look

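No library stood apart from its group in any of the 36 groups of values of the 9 members, by the gap to the nearest library as a share of the range. Among 76 groups of values screened, 4 had such a library, all in other genes of the pathways, and chance gives about 1 in 20 groups. Idi1, an SREBP2 target, was at 20.1 FPKM in naive vehicle 1, and the other naive vehicle libraries were at 18.4 to 18.6 FPKM. Apoc1, an LXR target, was at 13.4 FPKM in cuprizone vehicle 8, the library with the highest microglial marker sums, and the next highest was 4.26 FPKM. Scarb2, a lysosomal membrane protein, was at 33.8 FPKM in cuprizone vehicle 5, and the next highest was 31.4 FPKM. Ch25h, which makes 25-hydroxycholesterol, was at 0.496 FPKM in naive vehicle 3, and the next highest was 0.196 FPKM.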

How the results depend on the processing

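The 6 calls among the members under vehicle and the 4 under BTKi kept their direction and passed under every alternative run. The counts of called members ranged from 6 to 6 and from 4 to 6 with each library left out, and were 0 in the 3 comparisons of BTKi. The replicate numbers did not pair the libraries (correlation of deviations -0.274 to 0.324 over 28 same-numbered pairs, -0.282 to 0.269 over 180 others). With the replicate number as a block, Mylip and Plin2 also passed under BTKi (adjusted p = 0.0412 and 0.0474), and the genes with a difference of the BTKi effects were 9 in place of 19. Plin2 also passed under BTKi with the 2 groups compared alone (adjusted p = 0.0450).

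Leaving out 1 library gave 1824 to 2390 and 861 to 1294 genes called for cuprizone under vehicle and under BTKi, 14 to 34 and 7 to 41 for BTKi in cuprizone and in naive mice, and 8 to 23 for the difference. Genes called for BTKi in cuprizone mice were 27, against 16 with no filter and 11 without cuprizone vehicle 1, 4 and 7. In naive mice they were 33, against 21 with no filter, 19 after rescaling to TPM, 3 with the 2 groups compared alone and 19 without those 3 libraries, and the difference then gave 7. The split under vehicle was 1555 higher and 733 lower, 1229 and 978 after median ratio scaling, and 1205 and 1072 after quantile normalization. Under BTKi it was 929 and 269, then 772 and 406, and 724 and 395. In naive mice it was 16 and 17, then 23 and 16, and 22 and 7. In cuprizone mice it was 6 and 21, and 2 and 17 as TPM.

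Values near 0 that did not pass changed sign. Nr1h2 under vehicle was -0.0257 after median ratio scaling, -0.0231 after quantile normalization, -0.0110 without the 3 libraries, and -0.0430 to 0.0368 with each library left out. For BTKi in cuprizone mice Abca1 was -0.00368 as TPM, -0.142 without the 3 libraries and -0.0592 to 0.0574 with each left out, and Npc1 was -0.00836 to 0.0328. For BTKi in naive mice the ranges were -0.00550 to 0.0210 for Srebf2, -0.0742 to 0.00562 for Nr1h2 and -0.0247 to 0.137 for Plin2. For the difference, Abca1 was -0.0661 and Abcg1 -0.0384 without the 3 libraries, and Abcg1 was -0.0243 to 0.0409 with each left out. The 4 relations between members and the 12 with marker sums were 0 and 0 in cuprizone BTKi alone. The causes were not tested. Depth limits Nr1h3 most among the members.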
